A study of Mus musculus with 4 samples.

Results

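The genes described here encode the chaperone machine that folds the glucocorticoid receptor into its hormone-binding form. They are 10 named genes, chosen as the HSP90, HSP70 and co-chaperone genes of that machine, out of 21900 protein-coding genes in the reference. Each was looked up by its Ensembl gene ID and by its symbol in the authors' list of genes related to differential N6-methyladenosine (m6A) peaks, and the authors' Gene Ontology (GO) and KEGG pathway tables were searched for the same IDs. All 10 members had an ID in the reference, 7 were in the gene list and 3 were not.

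The study set MIN6 cells transfected with a GR expression vector against MIN6 cells transfected with a control vector; MIN6 is an insulin-secreting mouse insulinoma line that stands in for beta cells. GR is read here as the glucocorticoid receptor, since the labels give the abbreviation only. In both arms 10 µg of plasmid was transfected per dish, the strain label was C57BL/6, and RNA was taken 24 hours later; the labels name no added steroid. Fragmented RNA was sequenced as input and after immunoprecipitation (IP) with an anti-m6A antibody, with 1 library of each kind per arm and 4 in all, so no difference has a replicate check and no test between arms was possible. The tables hold comparisons and no value per library, and neither the depth nor the RNA level of any chaperone gene can be given.

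The unliganded glucocorticoid receptor is an HSP90 client. An HSP40 (J-protein) and HSP70 first bind the new receptor, the adaptor HOP hands it on to HSP90, and p23 then stabilises the closed HSP90 complex in which the receptor can take up hormone. FK506-binding immunophilins join that complex and link it to transport towards the nucleus, while nucleotide exchange factors release the client from HSP70. m6A is a methyl mark on adenosine in RNA, read by binding proteins that affect splicing, translation and decay. In beta cells, which fold large amounts of secreted protein, the same cytosolic chaperones also serve many clients other than the receptor.

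The gene list gives an Ensembl ID on each of 17052 lines, with fields for a symbol and protein domain names that can be empty. The lines held 9225 distinct IDs, of which 3476 had no symbol. It gives no direction, size or position of a peak and does not state what its lines count. Of all protein-coding genes, 25.2% had at least 1 line, against which the 7 of 10 receptor chaperones (70.0%, exact Clopper-Pearson 95% interval 34.8% to 93.3%, counting error only) can be read. The members were named with this table already known, so their share is a description and not a test. The 25.2% counts every protein-coding gene, also any without RNA in these cells, which could have no peak. It can therefore lie below the share among expressed genes, which cannot be given here, and this holds wherever a share is set beside it. Among the genes of an autophagy table with deposited differential peaks, 13 of 22 were missing from the gene list, so a missing line does not show that a gene had no differential peak. None of the 10 chaperone genes is in that autophagy table, so no fold change or peak position can be given for any of them. As a check of the cell label, 6 of 8 beta-cell genes fixed as markers were in the list (75%, exact 95% interval 34.9% to 96.8%), and Ins2 and Neurod1 were not. Of the exocrine, duct, stromal and blood markers, 0 of 7 were (0% to 41%). That second interval includes the 25.2% of all protein-coding genes. Being listed needs a peak as well as RNA, so this is not a measure of expression.

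Both cytosolic HSP90 genes were listed. Hsp90aa1, the stress-inducible isoform (ENSMUSG00000021270, chromosome 12, bases 110691036 to 110696395 of GRCm38), had 1 line. Hsp90ab1, the constitutive isoform (ENSMUSG00000023944, chromosome 17, 45567778 to 45573261), also had 1 line. Neither isoform thus stood above the other in this table. The isoforms are close paralogues with processed copies elsewhere in the genome, and how the authors treated reads that match several places is not given in the sources used here, so the assignment of a peak to either isoform is uncertain.

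Of the HSP90 co-chaperones, 2 of 3 were listed. Ptges3, which encodes p23 (ENSMUSG00000071072, chromosome 10, 128058982 to 128077254), had 1 line. Stip1, which encodes HOP, the adaptor that holds HSP70 and HSP90 together (ENSMUSG00000024966, chromosome 19, 7020696 to 7040026), had 1 line. Fkbp4, which encodes the immunophilin FKBP52 (ENSMUSG00000030357, chromosome 6, 128430103 to 128438656), was absent by ID and by symbol. The genes for HOP and p23 thus had a line and the immunophilin gene did not. A missing line does not show that Fkbp4 had no differential peak.

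The HSP70 side was also split. Hspa8, which encodes the constitutive HSP70 known as HSC70 (ENSMUSG00000015656, chromosome 9, 40801276 to 40805202), had no line. The 3 small nucleolar RNA genes inside it, Snord14c, Snord14d and Snord14e, had none either. Hspa4, which encodes the HSP110-type exchange factor APG-2 (ENSMUSG00000020361, chromosome 11, 53259814 to 53300479), had 2 lines, and Bag1, which encodes another exchange factor and is named for binding BCL2 (ENSMUSG00000028416, chromosome 4, 40936398 to 40948294), had 1 line. The gene of the client-binding HSP70 thus had no line, and both exchange factor genes among the members had a line. The missing line does not show that Hspa8 had no differential peak.

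The members of the J-protein family, which bring clients to HSP70 and stimulate its ATPase, were split. Dnajb1, a heat-inducible class B J-protein (ENSMUSG00000005483, chromosome 8, 83608175 to 83612653), had 3 lines, the most of any member. Dnaja1, a class A J-protein (ENSMUSG00000028410, chromosome 4, 40722468 to 40734965), had none. Dnaja1, which was absent, and Bag1, which was listed, lie 201 kb apart on chromosome 4.

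**Figure D1:**
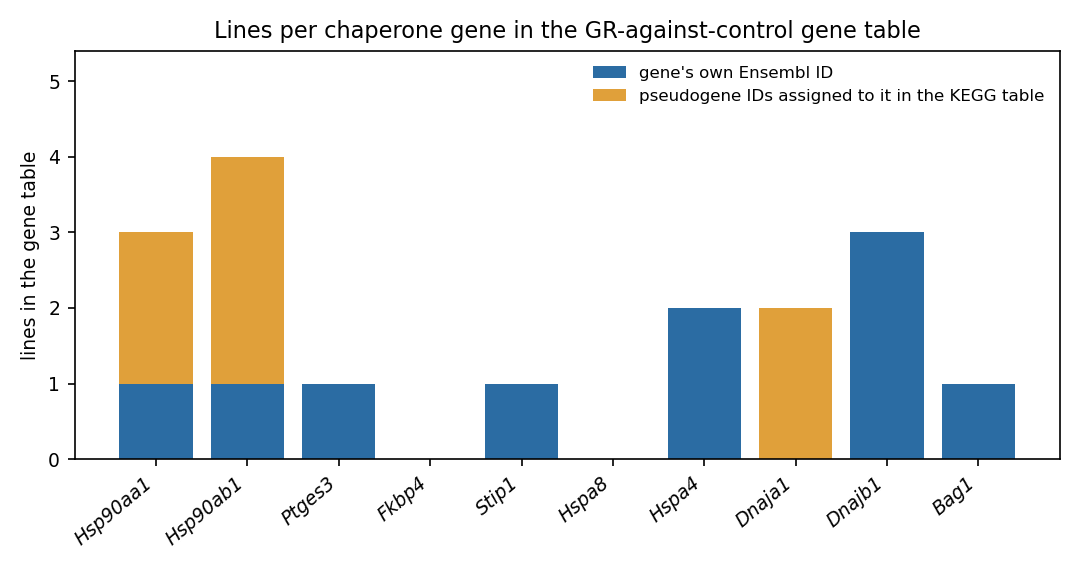
Number of lines in the gene list (vertical axis) for each of the 10 chaperone genes; blue is the gene's own Ensembl ID and orange is pseudogene IDs that the authors' KEGG table assigns to the same Entrez gene. Dnajb1 had the most lines of its own, 3, Fkbp4 and Hspa8 had none of either kind, and Dnaja1 was represented only by 2 lines of a pseudogene.

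Together the members had 10 lines, with 5 genes on 1 line, 1 on 2 lines and 1 on 3 lines. Among all listed protein-coding genes, 55.5% had 1 line, 25.1% had 2 and 19.4% had 3 or more. For 2 or more lines the share was 2 of 10 members (20.0%), beside 11.2% of all protein-coding genes. The 3 Dnajb1 lines and the 2 Hspa4 lines were each identical in every field, so nothing in them tells the repeats apart. Gene length did not order the members: Dnajb1, with the most lines, spans 4.48 kb, and Hspa4, with 2 lines, spans 40.7 kb. Of the absent genes, Hspa8 is the shortest member at 3.93 kb, and Fkbp4 and Dnaja1, at 8.55 and 12.5 kb, lie inside the range of the listed ones.

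Other annotated genes around the members were looked up in the same way. Of 23 genes within 10 kb of a member in the RefSeq annotation, 10 were protein-coding. Only 1 of the 23 was listed, the protein-coding Slc35b2, a nucleotide-sugar transporter gene 107 bases from Hsp90ab1, with 2 lines. Of all protein-coding genes 25.2% were listed, and no such share was worked out for the other gene classes. The 5 genes that overlap a member, all inside Hspa8 or overlapping Dnaja1, were absent.

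A second route into the tables ran through pseudogenes. The KEGG table pairs each Ensembl ID with an Entrez gene, and it assigns 5 unnamed gene models, all classed as pseudogenes by RefSeq, to 3 of the chaperone genes. Gm6368 (chromosome X, 141980080 to 141982518), Gm9403 (chromosome 3, 132842305 to 132844979) and Gm7198 (chromosome 10, 15520117 to 15521428) were assigned to Hsp90ab1 and had 1 line each. Gm15937 (chromosome 15, 5209280 to 5210216) was assigned to Hsp90aa1 and had 2 lines. It overlaps Ttc33, a tetratricopeptide-repeat gene that had 6 lines of its own. Gm15542 (chromosome 7, 140890764 to 140892244) was assigned to Dnaja1, had 2 lines, and overlaps Psmd13, a proteasome subunit gene with no line.

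These 5 pseudogenes held 7 lines, against 10 for the members themselves. With them Hsp90ab1 would have 4 lines and Hsp90aa1 3. Dnaja1, absent under its own ID, enters the KEGG table only through Gm15542. None of the 5 is in any GO term, so the GO counts of the members do not include them. Of 2074 Entrez genes in the KEGG input, 7.86% had 2 or more IDs and 15 had 4 or more; Hsp90ab1, with 4, is among those 15. Whether the peaks behind these lines arose from the pseudogenes or from reads of the parent genes was not tested.

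In the authors' deposited KEGG table, whose numbers count gene IDs, 12 of 290 pathways held at least 1 member, and 10 of the 12, like 66.9% of all pathways, had a corrected p in the authors' deposited table that was below 0.05. Protein processing in the endoplasmic reticulum held the most members, 4 (Bag1, Dnajb1, Hsp90aa1 and Hsp90ab1), with 75 input IDs against 167 background genes (the authors' deposited table, adjusted p = 2.06e-08), and the Dnaja1 pseudogene is counted there too. Antigen processing and presentation followed with 3 (Hsp90aa1, Hsp90ab1 and Hspa4), at 34 IDs against 98 (the authors' deposited table, adjusted p = 0.00392). Hspa4 was in no other pathway.

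The HSP90 pair was counted in 8 pathways, always as 6 IDs, namely both genes and their 4 pseudogenes. Those IDs made up 20.7% of the 29 input IDs of NOD-like receptor signaling, 17.6% of antigen processing and presentation, 14% of progesterone-mediated oocyte maturation and 12% of prostate cancer. In the estrogen signaling pathway, which is a steroid receptor pathway, they were 10.7% of 56 IDs. They were 8% of protein processing in the endoplasmic reticulum, 4.17% of PI3K-Akt signaling (144 IDs) and 3.73% of pathways in cancer (161 IDs). With each Entrez gene counted once, NOD-like receptor signaling had 22 genes in place of 29 IDs, of which the HSP90 pair was 9.09%, and estrogen signaling had 46 in place of 56, of which the pair was 4.35%. The deposited p-values, 4.57e-05 and 3e-10 for these 2 pathways in the authors' deposited table, rest on the ID counts.

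**Figure D2:**
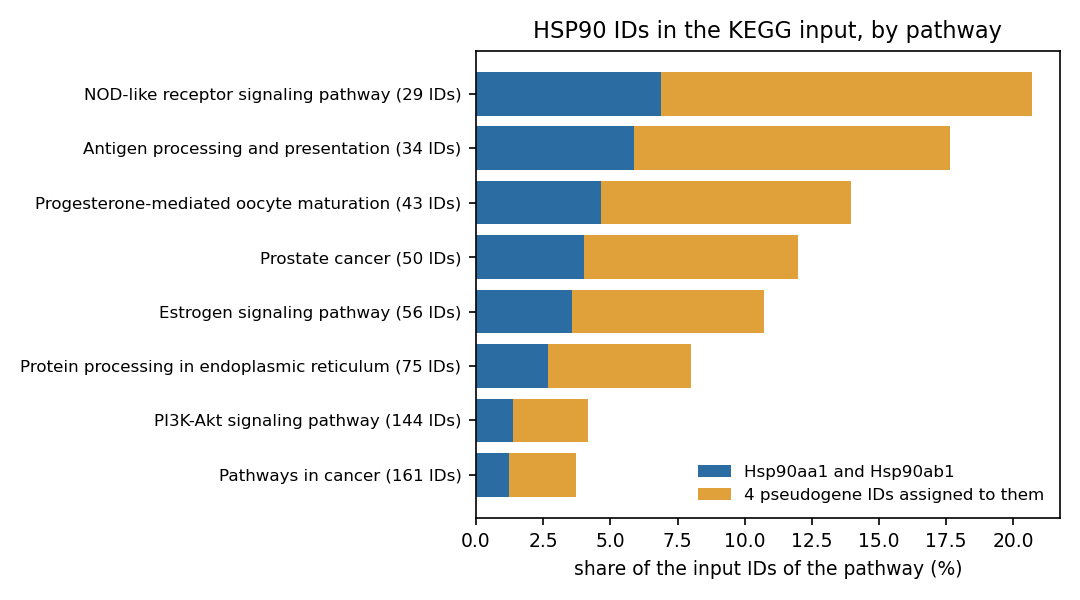
Share of each KEGG pathway's input IDs (horizontal axis, percent) that the authors' table assigns to HSP90, for the 8 pathways that hold it; blue is Hsp90aa1 and Hsp90ab1 and orange is their 4 pseudogenes. The share runs from 20.7% in NOD-like receptor signaling to 3.73% in pathways in cancer, and the pseudogenes make up the larger part of every bar.

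The co-chaperones entered other pathways. Ptges3 was counted in metabolic pathways (503 IDs) and arachidonic acid metabolism, under the prostaglandin E synthase name of p23; the second had 15 IDs against 90 (the authors' deposited table, adjusted p = 0.751). Stip1 was in prion diseases alone, with 12 IDs against 34 (the authors' deposited table, adjusted p = 0.0684). Dnajb1 was also in influenza A, with 61 IDs against 172 (the authors' deposited table, adjusted p = 8.84e-05). Fkbp4 and Hspa8 were in no pathway under any ID.

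The authors' deposited GO table, whose numbers per term also count genes, held at least 1 member in 930 of 16568 terms. Hsp90ab1 was in 586 terms, Hsp90aa1 in 568, Ptges3 in 253, Dnajb1 in 161, Bag1 in 148, Hspa4 in 76 and Stip1 in 22, and Fkbp4, Hspa8 and Dnaja1 were in none. The HSP90 genes shared 408 terms, 71.8% of those of Hsp90aa1 and 69.6% of those of Hsp90ab1. The number of terms reflects how fully a gene is annotated and not its m6A. Of the 930 terms, 447 held a single member and 113 held 4 or more.

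All 7 listed members occurred together in 10 terms, which were general ones: cytosol, cytoplasmic part, cytoplasm, membrane-bounded organelle, organelle, intracellular part, binding, intracellular, cell part and cell. The smallest was cytosol, with 1196 of 3610 background genes listed (33.1%). Among terms of at most 150 background genes, 5 held 4 or more members. Protein folding held 5 (all but Hspa4 and Stip1), with 56 of 150 genes listed (37.3%, exact 95% interval 29.6% to 45.6%). Unfolded protein binding, chaperone binding and heat shock protein binding held 4 each, with 41.2%, 39.8% and 40.3% of their genes listed.

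Chaperone-mediated protein complex assembly had the highest share of the terms chosen by name, with 10 of 15 genes listed (66.7%, 38.4% to 88.2%). Its 10 genes were Hsp90aa1, Hsp90ab1, Ptges3 and Hspa4 together with Bbs10, Cct2, Clu, Hdac6, Pfdn6 and Stub1. Chaperone complex had 8 of 17 genes listed, Ptges3 and Stip1 among them, Hsp70 protein binding 16 of 44 (Dnajb1 and Stip1) and Hsp90 protein binding 12 of 40 (Ptges3 and Stip1). The share of all background genes is 26% by the 5409 distinct IDs of the GO table. By its deposited total of 10022, whose meaning is not stated, the figure is 48.3%. That total exceeds the 9225 distinct IDs of the gene list. It is therefore not a count of distinct IDs in that list, and 48.3% may not compare with the shares of terms. All 24 terms named by rule, the 10 general ones and 14 with chaperone, heat shock, HSP or steroid words in their name, lay above 26%. Only chaperone-mediated protein complex assembly lay above 48.3%. Terms were named only if they held a listed member, so terms with lower shares could drop out beforehand. Glucocorticoid terms without a member lay on both sides of 26%. Regulation of glucocorticoid receptor signaling pathway had 18.2% listed and response to glucocorticoid 28.2%. Glucocorticoid metabolic process had 38.1% and glucocorticoid receptor binding 40% (8 of 20 genes). The p was 1 for all 16568 terms in the authors' deposited table, so none could be ranked by it.

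**Figure D3:**
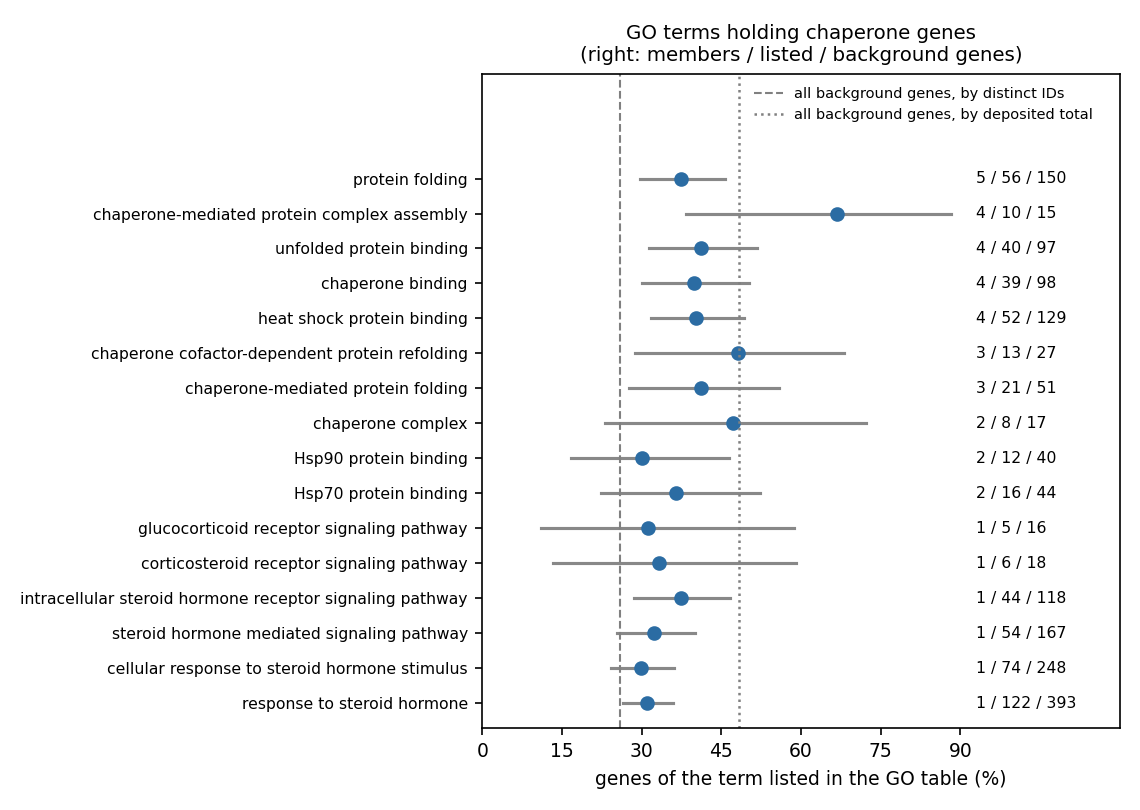
Share of each GO term's background genes that were listed (horizontal axis, percent; bars are exact 95% intervals for counting error only), for 14 terms chosen by name, protein folding and unfolded protein binding; the numbers at the right are members, listed genes and background genes. Chaperone-mediated protein complex assembly, at 66.7%, is the only term right of the dotted line at 48.3%, and all lie right of the dashed line at 26%. Terms are shown only if they hold a listed member, which can leave out terms with lower shares. The dotted line uses a deposited total that exceeds the number of distinct IDs in the gene list.

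Of 22 GO terms with glucocorticoid in their name, 5 of which name the receptor, 1 held a member (4.55%, beside 5.61% of all GO terms). It was glucocorticoid receptor signaling pathway, with 5 of 16 genes listed (31.2%, 11% to 58.7%). Its genes were Ptges3, the clock gene Per1, Ntrk2, the chromatin remodeller gene Arid1a and the 14-3-3 gene Ywhah. Ptges3 also stood alone among the members in the broader steroid terms, such as intracellular steroid hormone receptor signaling pathway (44 of 118 genes listed, 37.3%). Hsp90aa1, Hsp90ab1 and Ptges3 also occurred together in terms on telomerase, another HSP90 client: they were the 3 listed genes of the 6 in telomerase holoenzyme complex assembly, and 3 of 32 listed in telomere maintenance via telomerase (47.8% of 67 genes).

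The rest of the chaperone network gives a setting for these values. Across 6 lists of HSP90, HSP70 and J-protein genes, 37 of 97 genes were listed (38.1%), and 30 of 87 without the members (34.5%, 24.6% to 45.4%). All 4 HSP90 isoforms were listed; the others were Hsp90b1, the endoplasmic reticulum isoform, with 1 line and Trap1, the mitochondrial isoform, with 2. Of 21 HSP90 co-chaperones, 7 were (33.3%, 14.6% to 57%). Besides Ptges3 and Stip1 these were Cdc37, the kinase-specific co-chaperone, Sugt1, Ttc4 and Tomm34 with 1 line each and Nudc with 2. Absent beside Fkbp4 were Fkbp5, the immunophilin FKBP51 and a classical glucocorticoid target, and Fkbp8, Ppid, Ppp5c, Cdc37l1, Ahsa1, Ahsa2, Chordc1, Unc45a, Aarsd1, Tsc1, Fnip1 and Fnip2.

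The HSP70 isoforms had 3 of 11 genes listed (27.3%, 6.02% to 61%), close to the 25.2% of all protein-coding genes. They were Hspa5, the endoplasmic reticulum isoform BiP, and Hspa1l with 2 lines each, and Hspa2 with 1. Hspa1a, Hspa1b, Hspa9, Hspa13, Hspa14, Hspa12a and Hspa12b were absent, as Hspa8 was. Hspa1a and Hspa1b are near-identical copies of each other. The exchange factors and other HSP70 co-chaperones had 11 of 16 (68.8%, 41.3% to 89%), 9 of them besides Hspa4 and Bag1. St13, which encodes HIP, an HSP70 partner also found with steroid receptors, and Stub1, which encodes the ubiquitin ligase CHIP, had 3 lines each. Bag2, Bag6 and the mitochondrial exchange factor gene Grpel1 had 2, and Hsph1, Bag5, Hspbp1 and Sil1 had 1. Bag3, Bag4, Hspa4l, Hyou1 and Grpel2 were absent.

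J-proteins of classes A and B had 4 of 17 genes listed (23.5%, 6.81% to 49.9%) and those of class C 8 of 28 (28.6%, 13.2% to 48.7%), both near the 25.2% of all protein-coding genes. In classes A and B, Dnajb1 had 3 lines and Dnaja2, Dnajb5 and Dnajb11 had 2 each. In class C, Dnajc28 had 4, and Dnajc14 and Dnajc9 had 3, as did Dnajc22. The intervals of the 6 lists overlap one another, and no difference between lists was tested.

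**Figure D4:**
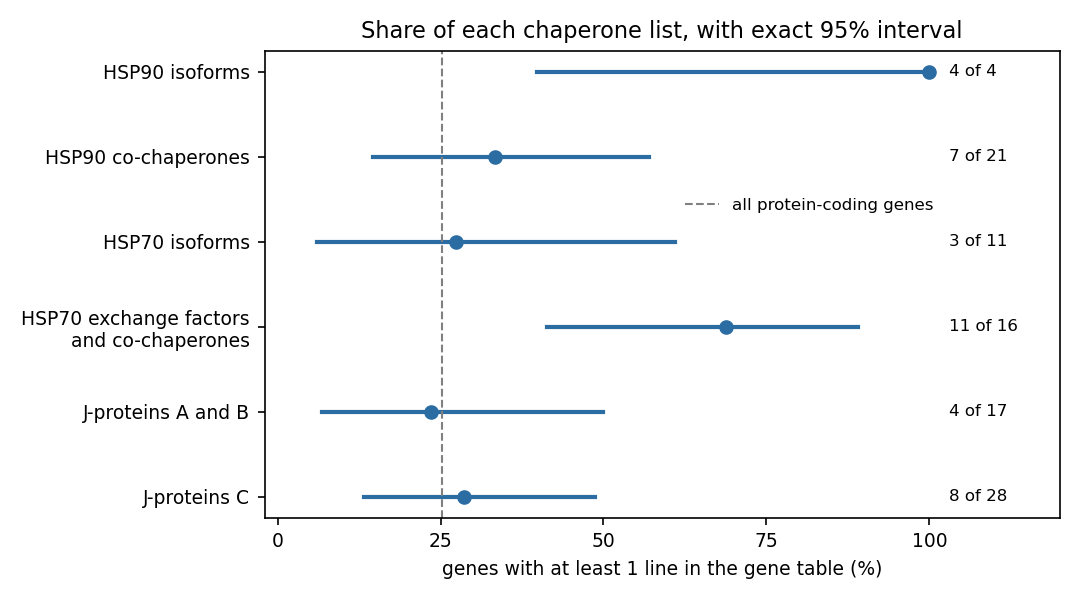
Share of the genes of each of 6 chaperone lists with at least 1 line in the gene list (horizontal axis, percent; points are shares, bars exact 95% intervals for counting error only, dashed line the 25.2% of all protein-coding genes). HSP90 isoforms (4 of 4) and HSP70 exchange factors and co-chaperones (11 of 16) have the highest shares, and their intervals are the ones that do not reach the dashed line. Both lists include members, which were named with the gene list already known, so this is a description and not a test. Without the members the counts are 2 of 2 and 9 of 14.

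The protein domain names in the gene list place the same genes in their families without use of symbols. The name for the HSP90 family occurred for 4 genes, Hsp90aa1, Hsp90ab1, Hsp90b1 and Trap1. The ATPase domain that HSP90 shares with histidine kinases occurred for 9, and the others were the pyruvate dehydrogenase kinase genes Pdk1 and Pdk2, Bckdk, Morc2a and the mismatch repair gene Mlh3. The HSP70 family name occurred for 5, Hspa4, Hsph1, Hspa1l, Hspa2 and Hspa5. The DnaJ domain name occurred for 14 genes on 33 lines, of which Dnajb1 had 3. The CS domain of Ptges3 was shared by 4 genes, with Sugt1, Nudc and Itgb1bp2, and the BAG domain by 3, Bag1, Bag2 and Bag5.

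Promoter sequence was examined because heat-inducible chaperone genes are known for shared heat shock elements. RefSeq windows from 250 bases before to 50 bases after the transcript start (GRCm38.p6) were held for 7 members, all but Hsp90aa1, Hsp90ab1 and Hspa8. The heat shock element core GAANNTTC, searched on both strands (it is its own reverse complement), was in the windows of 2 of 7, Fkbp4 and Dnaja1, both absent from the gene list, and in those of 8.44% of 17492 protein-coding genes. Both matches are shown 5′ to 3′ on the gene's strand, with the core in capitals, since they are the only ones among the members; the end of the core lies 144 bases before the Fkbp4 start (minus strand) and 117 before the Dnaja1 start (plus strand).
Fkbp4, chr6:128438789-128438818: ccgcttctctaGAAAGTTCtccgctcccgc
Dnaja1, chr4:40722333-40722362: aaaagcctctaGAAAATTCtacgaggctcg
The longer heat shock element, this core followed after 2 bases by another GAA, was in none of the 7 and in 0.595% of all, on either strand. The glucocorticoid response element, GAACA and TGTTC with 3 bases between them, was in none of the 7 and in 0.0572% of all. The GC box GGGCGG, searched on both strands like CCAAT, was in 6 of 7 (all but Hspa4) and 49.2% of all, and CCAAT in 4 of 7 and 42.3% of all. Genes with several starts had several windows, Dnaja1 among them, and a match is no evidence of binding. The deposited tables hold no measurement on promoters.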

How the data were processed

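RNA from 2 IP and 2 input libraries was compared between arms by the authors. BWA 0.7.12, HOMER 4.9.1 and the mm10 build are named, with no role, in the submitters' processing notes; how differential peaks were called, and at which threshold, is not given in the sources used here. The gene list has no header; its columns are, from their values, an ID, a symbol and domain names. The numbers of genes and the p-values of the GO and KEGG tables were deposited by the authors, per the file headers; 63 overflow lines of the GO table were joined to their terms.

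Lines were counted here by Ensembl ID (9217 of 9225 matched a symbol table), with gene class and coordinates by symbol from RefSeq GRCm38.p6, the assembly behind mm10. Intervals are exact Clopper-Pearson at 95%. No test was run: each arm has 1 library of each kind. Depth is unknown. On simulated data, only the counting of repeated symbols and the coverage of the exact intervals were checked. The matching of IDs and the reading of the GO and KEGG tables were not part of that check. Calculations used Python 3.11.15, SciPy 1.17.1 and Matplotlib 3.10.9.

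The members and lists were chosen with earlier results of these data known. Named were all members; every gene of the HSP90, co-chaperone, HSP70 and exchange lists; the 3 genes with most lines of other lists (ties kept); GO terms and KEGG pathways with most members; and GO terms named for chaperones, heat shock or steroids that hold a member. The 5 smaller terms with 4 members or more, the telomerase terms and the domain names were chosen after their values were seen. Alternatives were matching by symbol, distinct lines, pseudogene IDs, 2 or more lines, smaller GO terms, another GO total and distinct Entrez genes. One further steroid receptor gene is not reported here.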

Additional observations from a re-analysis of the deposited data

How the results depend on the processing

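The number of listed members, 7, was the same by deposited symbol and was 8 with Dnaja1 counted through its pseudogene, a setting added after the data were seen. The 10 lines of the members were 7 as distinct lines and 17 with the pseudogene IDs. Requiring 2 or more lines can only lower a share, and that of all protein-coding genes went from 25.2% to 11.2%. HSP90 isoforms (25%, 1 of 4 genes, Trap1, which is not a member) and exchange factors and co-chaperones (37.5%, 6 of 16) then lay above 11.2%. Both lay below their intervals from the 1-line count. Also below those intervals were HSP90 co-chaperones (4.76%), small heat shock proteins (0%), chaperonins (9.09%) and steroid receptors (0%). For classes A and B of the J-proteins the share was 23.5% under both counts. Matching by symbol changed none of the 11 shares. The 930 GO terms were 441 with 10 to 500 background genes, and the 12 pathways were 10 with an adjusted p below 0.05. Of 24 named GO terms, 1 lay above the share of all genes by the deposited total and 24 by distinct IDs. That reading depends on the total, and on naming only terms that hold a listed member. Counting Entrez genes moved no pathway's input by over 1.5 times. Leaving out near-identical paralogues was not run, as protein identities were not used here. No paired analysis was possible because each arm has 1 library of each kind and the tables carry no replicate. Depth is unknown and sets no limit that can be stated.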

Other observations

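Further chaperone families and the heat shock factor genes, from lists fixed with the others, were described by the same count, beside the 25.2% of all protein-coding genes. Among the heat shock transcription factor genes, Hsf5 had 3 lines, Hsf4 2 and Hsf2 1, whereas Hsf1, the main activator of the heat shock response, and Hsf3 had none. Hsbp1, which encodes a protein that binds heat shock factor and is not itself one, was in the same list and had none. The share of that list was thus 3 of 6 genes (50%, exact 95% interval 11.8% to 88.2%). Of 9 small heat shock proteins, Hspb8 alone was listed, with 1 line (11.1%, exact 95% interval 0.281% to 48.2%). The cytosolic chaperonin TRiC, which folds actin and tubulin, and mitochondrial HSP60 and HSP10 had 4 of 11 genes listed (36.4%, 10.9% to 69.2%). These were Cct2 with 2 lines and Cct7, Cct8 and Hspd1 with 1. Prefoldin, which delivers clients to TRiC, had 3 of 6 (50%, 11.8% to 88.2%), with 2 lines for Pfdn6 and 1 each for Pfdn1 and Pfdn4. The intervals of all these lists include 25.2%.

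Among steroid receptor genes, whose proteins share the HSP90 cycle, 1 of 5 was listed (20%, exact 95% interval 0.505% to 71.6%), near the 25.2% of all protein-coding genes. Esr1 had 1 line, and Nr3c1, the glucocorticoid receptor gene itself, Nr3c2, Pgr and Esr2 had none. In the GO term endoplasmic reticulum chaperone complex, which holds no member and was chosen after its value was seen, 7 of 12 genes were listed: Dnajb11, Dnajc10, Hsp90b1, Hspa5, P4hb, Ppib and Sdf2l1.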
